A study of Mus musculus with 8 samples.

Results

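The 10 genes examined were measured in SV-LECs, a mouse line of lymphatic endothelial origin, and come from a count table of 55471 genes. They are 6 ligands of the B7 family (Cd274, Pdcd1lg2, Cd80, Cd86, Icosl and Cd276), the lectin gene Lgals9, the ecto-enzyme genes Entpd1 and Nt5e, and Cd47. Members were taken by gene symbol, and each symbol matched 1 row. The line was derived from mesenteric adventitial tissue and immortalized with SV40, which both groups share. The untreated group held 4 libraries and received no cytokine, and the treated group held 4 libraries from cells exposed to 10 ng/ml TGFβ1 for 72 h. The study's methods describe the 4 samples of a group as technical replicates of 1 line, so errors and p-values cover the spread between these samples and not between independent experiments.

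B7 ligands are membrane proteins that bind receptors on T cells. PD-L1 (Cd274) and PD-L2 (Pdcd1lg2) bind PD-1 and restrain T cells, CD80 and CD86 bind both the costimulatory receptor CD28 and the inhibitory receptor CTLA-4, ICOSL binds ICOS, and the receptor of B7-H3 (Cd276) is not settled. Galectin-9 binds TIM-3 among other glycoproteins, and CD47 is the signal by which a cell holds off phagocytes that carry SIRPα. CD39 (Entpd1) and CD73 (Nt5e) act in sequence outside the cell, CD39 cutting ATP and ADP to AMP and CD73 cutting AMP to adenosine, which restrains immune cells through adenosine receptors. Lymphatic endothelial cells in lymph nodes are known to carry PD-L1 and to hold back T cells.

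Total counts were between 19182616 and 26077972 in untreated and between 18952504 and 26386941 in treated libraries. Between libraries of the same group the spread exceeded sampling noise in all 12 pairs, with chi-square per degree of freedom between 2.37 and 7.84. The treatment was visible in the TGFβ response list, where 8 of 9 genes were tested and all 8 were higher, against 37.6% of all genes tested. The labelled cell type was checked against 12 lymphatic endothelial markers, of which 5 passed the filter on low counts. Pdpn, Flt4, Nrp2 and Kdr were present, with untreated means of 342, 21.6, 66.4 and 11.6 CPM, counts scaled to library size, whereas the defining genes Prox1, Lyve1, Pecam1 and Cdh5 had at most 5 counts in any library and Tie1 and Ccl21a had 0. Of the 6 fibroblast and mural markers all were tested, and Dcn and Pdgfra reached 312 and 160 CPM in untreated cells. With 3 of them higher and 3 lower, their summed level was 595 to 634 CPM in untreated and 264 to 288 CPM in treated libraries, and its part in the members' values was not tested. Of 14 leukocyte markers 2 were tested, and both were higher. The summed level of the 14 was 6.22 to 8.3 CPM in untreated and 16.7 to 19.2 CPM in treated libraries. Most of it came from Cd68, a lysosomal gene. The other tested marker, Csf1r, rose from a mean of 0.278 to 1.38 CPM, and its groups did not overlap. Lyz2, which was not tested, had 1 to 3 counts in untreated and 10 to 13 counts in treated libraries. The leukocyte gene Ptprc was at 0 in every untreated library and had at most 1 count in a treated library. Of 5 epithelial markers 3 were tested, with 2 higher and 1 lower, and their summed level was 5.53 to 9.35 CPM in untreated and 8.03 to 10 CPM in treated libraries.

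CPM values here are reads per 1000000 reads of library size, with library sizes adjusted by the TMM method, and groups were compared with edgeR's likelihood ratio test at a false discovery rate (FDR) under 0.05 over all genes tested. Of the 10 members, 8 passed the filter on low counts. Among these 3 rose (Cd80, Cd274 and Lgals9), 4 fell (Icosl, Nt5e, Cd276 and Cd47) and Entpd1 did not pass the test. Over all 13818 genes tested, 75.6% were called, 37.6% higher and 38.0% lower, so the members' counts of 3 and 4 are near that background. The groups did not overlap in 7 of the 8 members, against 69.8% of all genes tested, with the treated group above in 3 (34.7% of all genes) and below in 4 (35.1%). The median log2 fold change was -0.07 over the 8 members and -0.01 over all genes tested. RNA per cell and the share of cells that carry a transcript cannot be told apart in these bulk libraries.

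**Figure D1:**
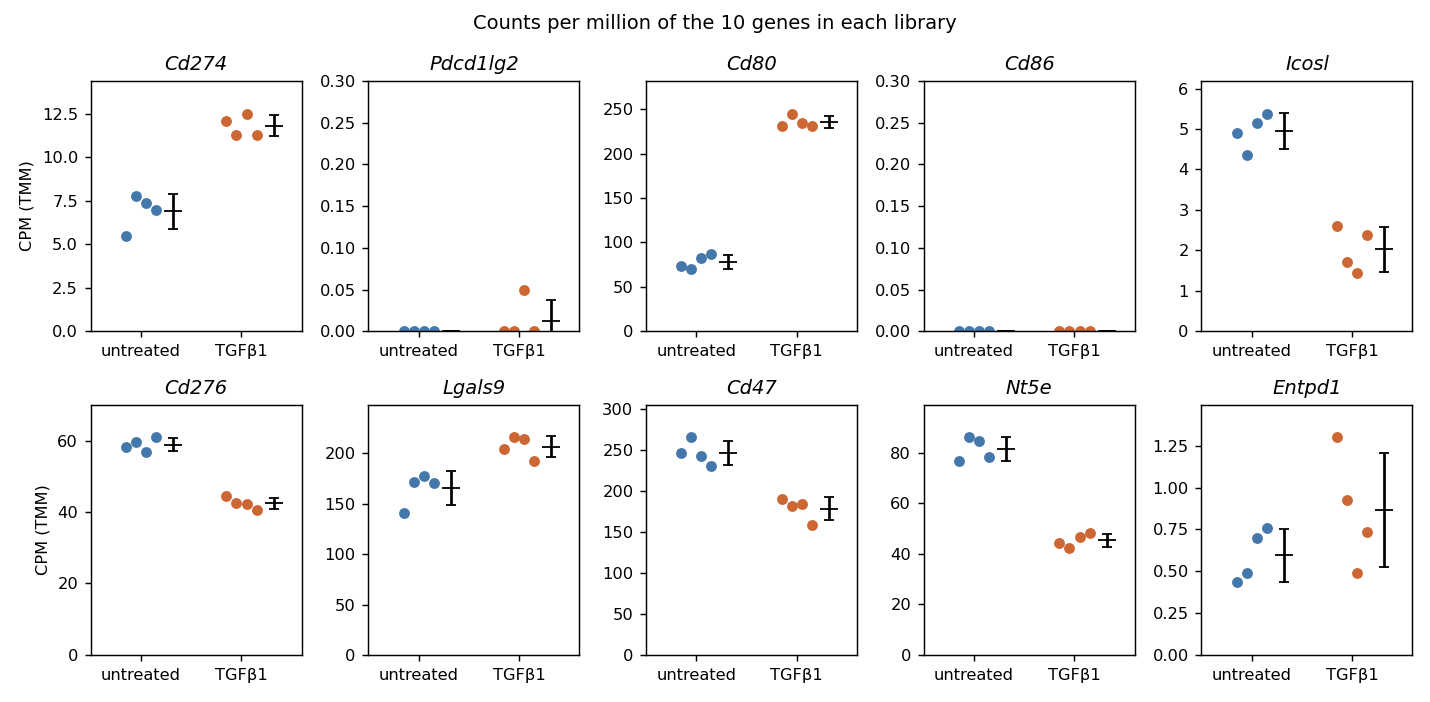
CPM on the vertical axis of the 10 genes in each of 8 libraries, one panel per gene with its own axis from 0, and untreated libraries in blue and TGFβ1-treated libraries in orange. Black bars show the mean and SD of 4 libraries. Cd80 sits between 69.8 and 86.4 in untreated and between 231 and 245 in treated libraries, while Cd86 is at 0 in all.

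The PD-1 ligands were represented by 1 transcript of the pair. Cd274 (ENSMUSG00000016496), which encodes PD-L1, lies on chromosome 19 of GRCm38 from 29367455 to 29388095 on the plus strand, and Pdcd1lg2 (ENSMUSG00000016498), which encodes PD-L2, lies 22823 bases further on, from 29410919 to 29471161 on the same strand. Cd274 measured 5.49, 7.77, 7.34 and 6.95 CPM in the untreated libraries and 12.1, 11.3, 12.5 and 11.3 CPM in the treated libraries. All treated libraries lay above all untreated ones, and the untreated library of replicate 1 was the lowest. The mean rose from 6.89 ± 0.99 to 11.8 ± 0.603 CPM (SD, n = 4 per group), 1.7-fold, or 0.77 ± 0.108 (standard error) on the log2 scale, at an edgeR FDR of 2.22e-12. The gene remained one of low abundance, with 114 to 207 reads per untreated library. Its level was above that of 29.2% of the genes tested.

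Pdcd1lg2 had 0 reads in all 4 untreated libraries and in 3 of the treated libraries. A single read fell on it in the treated library of replicate 3, out of 175244286 reads in the 8 libraries. A count of 3 in a library stands for 0.113 to 0.162 CPM, so a level below that could go unseen at this depth, and no fold change is given. The single read and such floors cover counting error only.

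Of the 3622 exonic bases of Cd274, 14.1% overlap an antisense gene on the other strand, listed as Gm36043 (AC119228.1), which had at most 1 read in any library. Whether strand was used in counting is not given in the sources used here, so reads of that stretch could not be assigned with certainty.

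The windows upstream of the RefSeq transcript starts, 250 bases each on GRCm38.p6, are shown for the neighbouring pair, for Cd80, which changed most among the higher members, and for Nt5e. They are written in the direction of transcription, with CG dinucleotides in capitals. The Cd274 window is chr19:29367188-29367437 and the Pdcd1lg2 window chr19:29410669-29410918, both on the plus strand. The Cd80 window is chr16:38458683-38458932 and the Nt5e window chr9:88327359-88327608, both on the plus strand. These RefSeq starts differ from the annotated gene starts, 38455561 for Cd80 and 88327197 for Nt5e. Both windows therefore lie inside the annotated genes, as do those of Cd47 and Cd276.
Cd274: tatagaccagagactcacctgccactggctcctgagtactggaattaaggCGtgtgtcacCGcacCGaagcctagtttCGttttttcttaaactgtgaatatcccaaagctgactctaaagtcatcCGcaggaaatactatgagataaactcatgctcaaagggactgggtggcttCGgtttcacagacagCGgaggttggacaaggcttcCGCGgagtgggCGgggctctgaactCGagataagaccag
Pdcd1lg2: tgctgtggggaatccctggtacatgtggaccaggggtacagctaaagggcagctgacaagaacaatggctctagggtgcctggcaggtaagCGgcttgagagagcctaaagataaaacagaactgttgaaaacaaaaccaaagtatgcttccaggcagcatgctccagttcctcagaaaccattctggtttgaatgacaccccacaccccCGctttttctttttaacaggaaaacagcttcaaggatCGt
Cd80: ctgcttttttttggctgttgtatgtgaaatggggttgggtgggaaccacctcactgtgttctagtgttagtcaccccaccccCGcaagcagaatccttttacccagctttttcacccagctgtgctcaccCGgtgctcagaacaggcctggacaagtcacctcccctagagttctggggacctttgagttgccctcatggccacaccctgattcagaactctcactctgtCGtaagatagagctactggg
Nt5e: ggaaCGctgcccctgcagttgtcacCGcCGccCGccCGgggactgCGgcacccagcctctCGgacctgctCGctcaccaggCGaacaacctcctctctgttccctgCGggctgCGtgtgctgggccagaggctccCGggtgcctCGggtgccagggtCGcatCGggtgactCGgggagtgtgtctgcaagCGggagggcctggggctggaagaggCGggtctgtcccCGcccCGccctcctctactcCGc

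RefSeq windows were found for 9 of the 10 members, 11 windows in all. Among the 4 members that fell, the window held 21 CG dinucleotides in Nt5e, 23 in Icosl, 29 in Cd276 and 30 and 31 in the overlapping windows of Cd47. Among the 3 that rose it held 3 in Cd80, 3 in Lgals9 and 11 in Cd274. Pdcd1lg2, which was not tested, also had 3, and the windows of Entpd1, which was not called, held 18 and 8. Over all 32817 windows the median was 6, with quartiles of 2 and 16. This feature was picked out after the values were seen. Over the tested genes the median was 16, with quartiles of 10 and 22.5, and it was 15.5 for genes called higher and 16.3 for genes called lower. The table held a window for 74.2% of the genes tested, and a comparison on under 80% is void, so nothing is read from the members' counts.

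Known motifs were searched on both strands of the same windows, and no matches of different motifs overlapped in the members. The SMAD box CAGAC occurred in 4 of the members (Cd274, Cd276, Nt5e and Entpd1), and in 42.2% of all windows. The Cd274 match lay 62 to 66 bases before the start. The SMAD palindrome GTCTAGAC was in no member's window and in 0.168% of all windows. The AP-1 motif TGANTCA was found in Cd80, as TGATTCA 36 to 42 bases before the RefSeq start, and in 6.75% of all windows. The interferon-stimulated response element, known as ISRE, is GAAA, any 2 bases and GAAA again, and was found in Lgals9, 46 to 55 bases before the start, and in 2.97% of all windows, and the interferon gamma-activated site TTCNNNGAA in no member and in 7.01%. The NF-κB consensus was found in Pdcd1lg2 and Icosl and in 7.25% of all windows. A match is a description of these letters and not a binding site.

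The CD28 and CTLA-4 ligands differed most within a pair. Cd80 (ENSMUSG00000075122) lies on chromosome 16 from 38455561 to 38496335 on the plus strand. It measured 73.5, 69.8, 82.6 and 86.4 CPM in the untreated libraries and 231, 245, 235 and 231 CPM in the treated libraries. The lowest treated library lay far above the highest untreated one, with a gap of 1.42 on the log2 scale. The mean rose from 78.1 ± 7.71 to 236 ± 6.6 CPM (SD, n = 4), 3.02-fold, or 1.6 ± 0.0607 (standard error) on the log2 scale, at an edgeR FDR of 9.35e-146. The size of this change exceeded that of 91.8% of the genes tested.

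Cd86 (ENSMUSG00000022901), on the same chromosome from 36603869 to 36666081 on the minus strand, had 0 reads in every library. Over the 8 libraries together 3 reads would stand for 0.0171 CPM, so a mean level below that could have gone unseen. Set against the mean floor of 3 counts per library, CPM of Cd80 was at least 578-fold higher than that of Cd86 in untreated cells and at least 1650-fold higher in treated cells. These bounds were not scaled to length; the exonic lengths of the genes are 3703 bases for Cd80 and 3661 bases for Cd86.

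Icosl and Cd276, the other B7 ligands, fell. Icosl (ENSMUSG00000000732, chromosome 10, 78069302 to 78083913, plus strand) measured 4.91, 4.36, 5.15 and 5.38 CPM in untreated and 2.6, 1.7, 1.43 and 2.37 CPM in treated libraries. The groups did not overlap, and the treated libraries spread more in proportion to their mean, with a coefficient of variation of 27.1% against 8.85%. The mean dropped from 4.95 ± 0.438 to 2.02 ± 0.549 CPM (SD, n = 4), 2.43-fold, or -1.28 ± 0.163 (standard error) on the log2 scale, at an edgeR FDR of 3.61e-15. The treated values rest on 29 to 61 reads per library.

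Cd276 (ENSMUSG00000035914, chromosome 9, 58524298 to 58555437, minus strand) measured 58.3, 59.7, 56.7 and 60.9 CPM in untreated and 44.4, 42.5, 42.3 and 40.7 CPM in treated libraries. It had the lowest spread of the members in untreated cells, with a coefficient of variation of 3.05%, and the groups did not overlap. The mean dropped from 58.9 ± 1.8 to 42.5 ± 1.53 CPM (SD, n = 4), 1.39-fold, or -0.47 ± 0.0507 (standard error) on the log2 scale, at an edgeR FDR of 3.7e-20. An opposite-strand gene, Gm10657, overlaps 11.4% of its exonic bases and had at most 2 reads in any library.

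**Figure D2:**
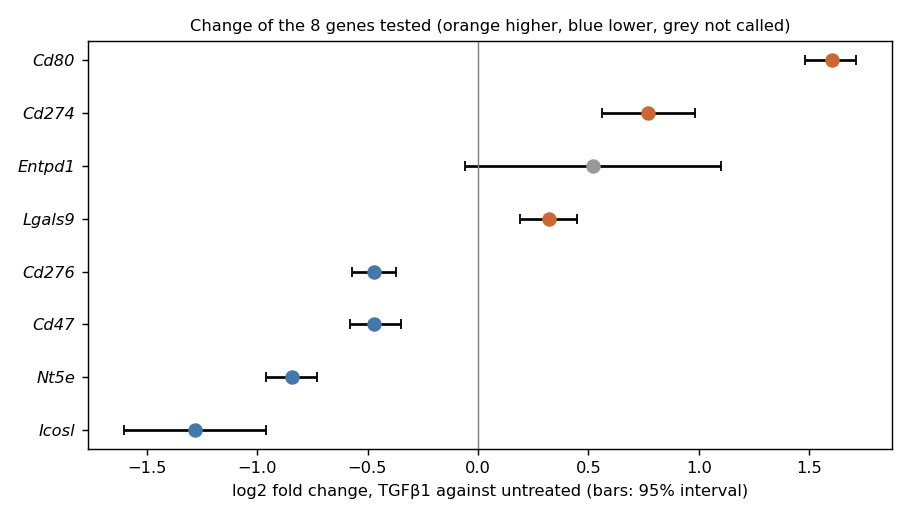
Log2 fold change of TGFβ1-treated against untreated libraries on the horizontal axis for the 8 members that were tested, with bars for the 95% interval from the standard error of the edgeR fit (4 libraries per group). Cd80 lies highest at 1.6 and Icosl lowest at -1.28, and the interval of Entpd1 reaches from -0.06 to 1.1.

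For comparison between genes, counts were divided by exonic length (RPKM, CPM per kilobase of exon). Among the B7 ligands the summed level rose from 40.2 ± 2.3 to 79 ± 1.73 RPKM (SD, n = 4), a description made after the values were seen and not tested. Cd80 made up 49.3 to 54.5% of that sum in untreated and 79.6 to 81.4% in treated libraries. Cd276 went from 37.9 to 42.7% to 14.3 to 15.5%, and Icosl from 2.47 to 2.77% to 0.392 to 0.716%. Cd274 held 3.95 to 5.61% and 3.85 to 4.38%, so its share overlapped between the groups although its own level rose.

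**Figure D3:**
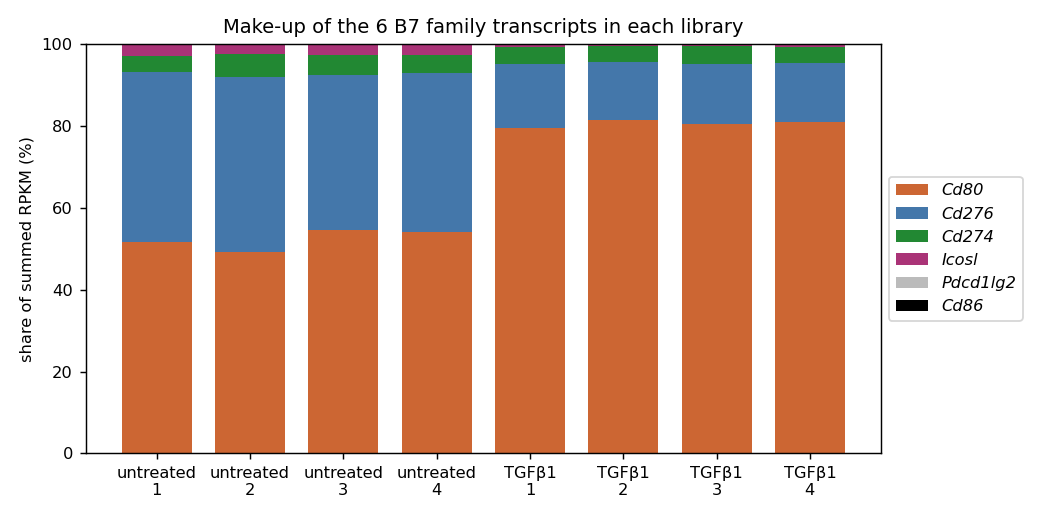
Share of the summed RPKM of the 6 B7 ligands on the vertical axis in each of the 8 libraries, stacked by gene. Cd80 takes 79.6 to 81.4% in the TGFβ1-treated libraries against 49.3 to 54.5% in the untreated ones, and Cd276 is the next in all libraries.

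Lgals9 and Cd47, ligands of TIM-3 and SIRPα, moved in opposite directions. Lgals9 (ENSMUSG00000001123, chromosome 11, 78962974 to 78984946, minus strand) measured 141, 172, 178 and 171 CPM in untreated and 204, 216, 214 and 193 CPM in treated libraries. The groups were parted by a narrow gap of 0.12 on the log2 scale, the smallest of the members whose groups did not overlap. The mean rose from 166 ± 16.3 to 207 ± 10.3 CPM (SD, n = 4), 1.25-fold, or 0.32 ± 0.0658 (standard error) on the log2 scale, at an edgeR FDR of 2.36e-06.

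Cd47 (ENSMUSG00000055447, chromosome 16, 49800533 to 49915010, plus strand) measured 246, 265, 242 and 230 CPM in untreated and 190, 181, 184 and 158 CPM in treated libraries. All treated libraries lay below all untreated ones. The mean dropped from 246 ± 14.4 to 178 ± 14 CPM (SD, n = 4), 1.38-fold, or -0.47 ± 0.0603 (standard error) on the log2 scale, at an edgeR FDR of 3.92e-14.

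The adenosine route was uneven at its 2 steps. Nt5e (ENSMUSG00000032420, chromosome 9, 88327197 to 88372092, plus strand), the CD73 gene that makes adenosine, measured 76.5, 86, 84.6 and 78.2 CPM in untreated and 44.4, 42.1, 46.6 and 48.2 CPM in treated libraries. The groups did not overlap. The mean dropped from 81.4 ± 4.69 to 45.3 ± 2.67 CPM (SD, n = 4), 1.79-fold, or -0.84 ± 0.0594 (standard error) on the log2 scale, at an edgeR FDR of 8.78e-45.

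Entpd1 (ENSMUSG00000048120, chromosome 19, 40612366 to 40741602, plus strand), the CD39 gene, had 9, 13, 16 and 15 reads in the untreated and 24, 19, 10 and 19 reads in the treated libraries. The groups overlapped, with the treated library of replicate 3 inside the untreated range. Mean levels were 0.595 ± 0.159 and 0.863 ± 0.34 CPM (SD, n = 4), and the log2 fold change of 0.52 did not pass the test (95% interval -0.06 to 1.1, FDR = 0.0941 from edgeR). Without that library the value was 0.7 (edgeR FDR = 0.0238, against up to 0.398 with another library left out).

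Reads of Nt5e outnumbered those of Entpd1 103- to 176-fold in untreated libraries and 34.2- to 94.8-fold in treated libraries. The log2 ratio with 0.5 counts added went from 7.08 ± 0.382 to 5.76 ± 0.623 (SD, n = 4), a difference of -1.32 (two-sided exact permutation test, p = 0.0286, the smallest that 70 splits can give, adjusted p = 0.0429 over 3 ratios). Without the ratio of Cd80 to Cd86, which tests nothing beyond Cd80, the exact permutation p adjusted over the other 2 ratios was 0.0571 and did not pass, an adjustment chosen after seeing the data. The direction was the same when 2 counts were added. The log2 ratio of Cd80 to Cd86 differed by 1.52, and because Cd86 was at 0 throughout it only restates the counts of Cd80, unscaled to library size, and is no separate test. The log2 ratio of Cd274 to Pdcd1lg2 differed by 0.31 (exact permutation p = 0.486), a value set in large part by the single Pdcd1lg2 read.

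Per length, the order of the members in untreated cells was Lgals9 (77.5 ± 7.65 RPKM), Cd47 (39.1 ± 2.29), Cd80 (21.1 ± 2.08), Cd276 (16.1 ± 0.492), Nt5e (9.46 ± 0.545), Cd274 (1.9 ± 0.273), Icosl (1.07 ± 0.0948) and Entpd1 (0.107 ± 0.0285), each as mean and SD over n = 4. In treated cells Cd80 (63.6 ± 1.78 RPKM) passed Cd47 (28.4 ± 2.23) to stand second after Lgals9 (96.8 ± 4.83), and the order of the others was the same. In both groups the ranges of neighbours in this order did not overlap, except for Pdcd1lg2 and Cd86 at or near 0. Lengths are those of all annotated exons, and the isoforms in use are unknown.

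Receptors for these ligands were scarce except for Sirpa and Rgmb. Of 8 receptors and partners, 2 were tested, with 1 higher and 1 lower. For this list and those below, the background over all genes tested was 37.6% higher and 38.0% lower, with a median log2 fold change of -0.01. Sirpa, the receptor that binds CD47 on phagocytes, fell from 64 ± 1.87 to 32.9 ± 1.79 CPM (SD, n = 4), 1.95-fold, or -0.97 on the log2 scale, at an edgeR FDR of 1.25e-68. Rgmb, a binding partner of PD-L2, was higher by 0.16 on the log2 scale (edgeR FDR = 0.00918) and did not pass when libraries were scaled by total counts (0.09, edgeR FDR = 0.143, against 0.00404 to 0.143 over all alternatives with all libraries). Ctla4 had 0 reads in every library. Pdcd1, the PD-1 gene, and Treml2 were at 0 in untreated libraries and had at most 1 read in a treated one. Cd28 had at most 3 reads per library and Icos 2 to 7. Havcr2, the TIM-3 gene, had 1 or 2 reads in untreated and 6 to 14 in treated libraries, too few to be tested.

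Other ligands of inhibitory receptors moved both ways. Of 18 genes in the list 11 were tested, with 5 higher and 4 lower, and the median log2 fold change was -0.09. The list also holds Ido1 and Arg1, which encode enzymes and not ligands and were not tested. Cd200, whose product restrains myeloid cells, rose from 263 ± 22 to 771 ± 7.72 CPM, 2.93-fold. Nectin1, an adhesion molecule, rose from 14.5 ± 0.694 to 44.4 ± 2.65 CPM, 3.07-fold, and Fgl2 from 0.375 ± 0.2 to 1.07 ± 0.0453 CPM. Lgals3, a lectin that binds LAG-3 among other partners, fell from 46.9 ± 3.41 to 13 ± 1.76 CPM, 3.61-fold (each SD, n = 4). Their FDRs from edgeR were between 1.07e-175 and 1.22e-07.

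In the CD47 axis, 8 of 9 genes were tested, with 7 higher and 1, Sirpa, lower, and the median log2 fold change was 1.62. Over all genes tested 37.6% were higher and 38.0% lower. The CD47 ligand genes Thbs1 and Thbs2, which encode thrombospondins, rose from 402 ± 25.7 to 2110 ± 90.8 CPM and from 36.8 ± 2.39 to 302 ± 23.4 CPM, 5.25-fold and 8.18-fold. Itgb3, an integrin chain that associates with CD47, rose from 4.66 ± 0.376 to 20 ± 1.53 CPM, and Lrp1, the calreticulin receptor, from 485 ± 24.7 to 1620 ± 133 CPM (each SD, n = 4). Qpctl, whose enzyme modifies CD47 so that SIRPα binds it, was named after its values were seen and rose from 19.5 ± 1.61 to 51.1 ± 3.21 CPM, or 1.39 on the log2 scale. Cd47 and Sirpa were lower and the other tested genes of this list higher in treated libraries.

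Galectins other than Lgals9 also moved both ways. Of 8 genes in the list 5 were tested, with 2 higher and 2 lower, and the median log2 fold change was 0.05. The 2 higher were Lgals4, with 13 to 21 reads per untreated library, and Lgals3bp, which is not itself a galectin. Lgals4 rose from 0.71 ± 0.0986 to 2.69 ± 0.326 CPM, and Lgals3bp, a galectin-binding glycoprotein, from 262 ± 38.4 to 618 ± 34.4 CPM. Lgals3 fell as given above. Lgals1, the most abundant of the list by CPM in untreated libraries, fell from 639 ± 51 to 565 ± 12.1 CPM (each SD, n = 4), a log2 fold change of -0.18.

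The 15 genes for known regulators of PD-L1 were all tested, with 5 higher and 6 lower, and their median log2 fold change was -0.01. Ifngr1 and Irf1 of the interferon gamma pathway rose, with log2 fold changes of 0.47 and 0.44, while Ifngr2 and Jak2 of the same pathway, named after their values were seen, fell, with -0.14 and -0.23. Jak1, also named after its values were seen, did not pass the test (0.02, edgeR FDR = 0.641). Cmtm4, which keeps PD-L1 protein at the surface, fell from 208 ± 6.51 to 134 ± 2.83 CPM (SD, n = 4), or -0.63 on the log2 scale. Cmtm6, its relative with the same role and named after its values were seen, was lower, at -0.29 on the log2 scale (edgeR FDR = 2.93e-07).

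Around the adenosine enzymes, 23 of 25 listed genes were matched by symbol and 19 were tested, with 9 higher and 6 lower and a median log2 fold change of 0.07. Entpd3, which encodes another ecto-enzyme of the CD39 family, fell from 9.9 ± 0.454 to 0.893 ± 0.195 CPM, 11.2-fold. Bst1, an ecto-enzyme that uses NAD, fell from 8.46 ± 1.52 to 1.42 ± 0.164 CPM, 5.97-fold. Enpp1, which cuts ATP to AMP and pyrophosphate outside the cell, rose from 10.1 ± 1.24 to 55.6 ± 2.73 CPM, 5.46-fold, and Cd38, another NAD-using ecto-enzyme, from 1.02 ± 0.126 to 4.47 ± 0.154 CPM, 4.31-fold (each SD, n = 4). Their FDRs from edgeR were between 1.15e-222 and 3.28e-41.

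Of the adenosine receptors Adora2b was the one that passed the filter, with 2.31 ± 0.155 and 2.43 ± 0.304 CPM (SD, n = 4) and a difference of 0.07 on the log2 scale (edgeR FDR = 0.665). Adora2a had 5 to 18 reads and Adora1 0 to 8 reads per library, too few to be tested, and Adora3 was not matched by symbol and is not analysed here. Ada, which converts adenosine to inosine, was named after its values were seen and rose from 9.48 ± 0.547 to 16.1 ± 0.79 CPM (SD, n = 4), a log2 fold change of 0.76. Adk, which phosphorylates adenosine inside the cell, also named after its values were seen, stood at 0.04 on the log2 scale (edgeR FDR = 0.353). Acpp and Alpl, phosphatase genes of the adenosine list and likewise named afterwards, moved in opposite directions. Acpp averaged 9.92 CPM in untreated and 22.7 CPM in treated libraries (log2 value 1.2, edgeR FDR = 5.59e-43). Alpl averaged 0.778 CPM in untreated and 0.241 CPM in treated libraries (log2 value -1.62, edgeR FDR = 3.12e-06), with 3 to 8 reads per treated library. Whether adenosine itself changed was not tested.

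**Figure D4:**
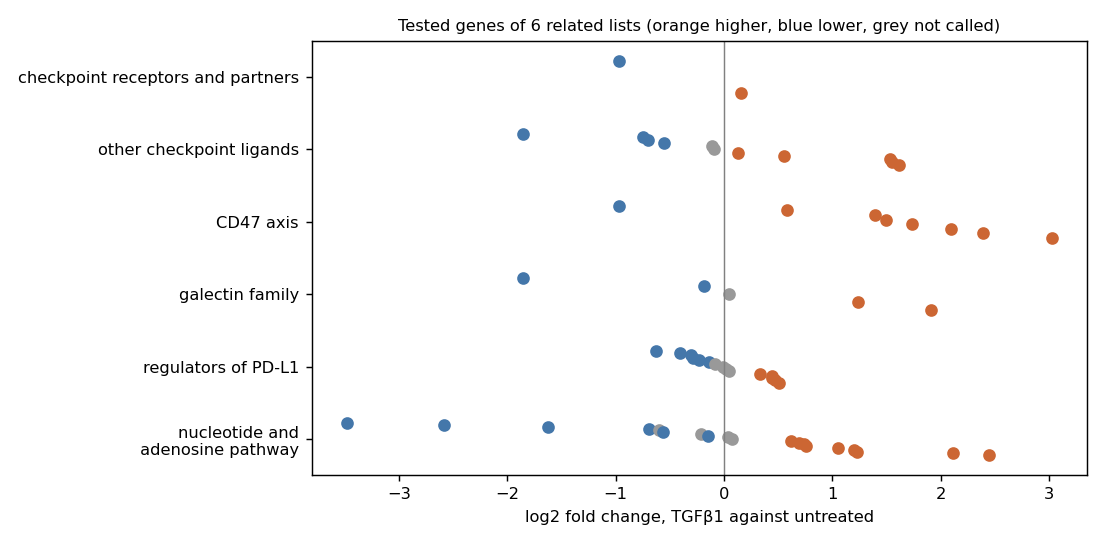
Log2 fold change of TGFβ1-treated against untreated libraries on the horizontal axis for the tested genes of 6 lists, 1 point per gene, coloured by call at an FDR under 0.05. The CD47 axis has 7 higher and 1 lower gene, and the adenosine pathway spans from -3.48 for Entpd3 to 2.45 for Enpp1.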

How the data were processed

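RNA of SV-LECs was sequenced from stranded poly(A) libraries as single-end reads of 75 bases. The authors deposited raw counts of reads per gene without normalization. The submitters' processing notes name bcl2fastq 2.20.0.422, STAR 2.7.3a, featureCounts 1.5.1 and the build GRCm38; annotation release and use of strand are not given in the sources used here.

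Libraries were grouped by their labels. The analysis ran in R 4.3.3, with edgeR 4.0.16 for filterByExpr on the groups, TMM, estimateDisp, glmFit and glmLRT, as the study's methods name, with Benjamini-Hochberg FDRs over all 13818 genes tested. Standard errors came from the fitted weights. Exon lengths and positions came from GENCODE M21 (GRCm38), promoter windows from RefSeq. The steps were tested on simulated data in which a small part of the genes was changed. How they behave when most genes change, as called here, was not tested. The quasi-likelihood test, DESeq2 1.42.0, other scalings, other filters, a replicate block and each library left out were alternatives. Total counts per library were between 18952504 and 26386941, and a floor of 3 counts covers counting error only.

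The members and lists were chosen with earlier results of these data known. Named were all members and, per list, up to 4 called genes with the largest fold changes, every listed receptor and the adenosine receptors. Others are identified. The TGFβ response list was given by its counts only, with no gene named. A gene under this rule is not reported here.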

Additional observations from a re-analysis of the deposited data

Results flagged for a closer look

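One value stood apart from its group. In the treated libraries Pdcd1lg2 had its single read in replicate 3, and the gap to the other libraries made up the whole range of the group (a ratio of 1 against a critical value of 0.829 for 4 samples by Dixon's test). Of 17 groups of member values with any spread this was the one that exceeded the critical value. A lone read in an otherwise empty group gives a ratio of 1 by construction, so the flag adds nothing beyond that read. The count is 1 read, at 0.0492 CPM.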

How the results depend on the processing

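The 7 called members kept their direction and stayed past the threshold under all 7 alternatives that used all libraries and in all 8 fits with 1 library left out, where log2 fold changes ranged from 1.54 to 1.64 for Cd80, 0.67 to 0.83 for Cd274, 0.25 to 0.35 for Lgals9, -1.4 to -1.15 for Icosl, -0.88 to -0.81 for Nt5e, -0.5 to -0.45 for Cd276 and -0.5 to -0.41 for Cd47. Entpd1 ranged from 0.28 to 0.7 and passed only without treated replicate 3, and the filter on CPM left it untested. The ratio of Nt5e to Entpd1 differed by -1.57 to -1.09 with 1 library left out, with an exact p of 0.0571 when any 1 of the untreated libraries was left out; the difference of -1.32 did not pass when adjusted over 2 ratios (exact permutation p = 0.0571), as chosen after seeing the data. With total counts only, 0 receptors and partners were higher instead of 1. Rgmb and Pvr lost their calls under that scaling (0.09 and 0.06) and without a filter (0.13 and 0.1), and Pvr also without untreated replicate 4 (0.1, edgeR FDR = 0.0523). Entpd2, not called in the main fit, passed under the quasi-likelihood test (FDR = 0.0466) and with total counts (edgeR FDR = 0.0304). It also passed without untreated replicate 1, treated replicate 1 or treated replicate 3 (edgeR FDR of 0.0331 to 0.0491). Stat3, also not called, passed with total counts (edgeR FDR = 0.000801) and in 1 fit with a library left out (edgeR FDR = 0.0144). Directions of uncalled genes changed for Btn2a2 (-0.3 to 0.13 with 1 library left out), Adk (-0.03), Lgals8 (-0.02), Irf2 (-0.01) and Jak1 (-0.05), the last 4 with total counts, for Jak1 also without a filter (-0.01) and without untreated replicate 1 (0), and for Spop with a filter of 1 CPM (0) and without untreated replicate 4 (0.04). Same-numbered libraries did not deviate together (correlations of deviations from -0.19 to -0.03), which cannot tell whether the samples were handled in pairs. With a replicate block 5075 genes were higher and 5077 lower instead of 5198 and 5251, and 3 members were higher and 4 lower. Depth limits Entpd1, Pdcd1lg2, Cd86 and most receptors.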
